A study of Mus musculus with 3 samples.

Results

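The Hsp70 and Hsp90 chaperone genes described here are Hspa2, Hspa4, Hspa4l, Hspa5, Hspa8, Hspa9, Hsp90aa1, Hsp90ab1, Hsp90b1 and Hsph1, 10 of the 21770 protein-coding genes with a canonical transcript in the annotation. They were taken by name. Hspa2, Hspa4l and Hsp90aa1 were set apart as the 3 genes known for high expression in male germ cells, and the other 7 as general chaperones. The data were iCLIP maps of Tra2β, made by ultraviolet crosslinking and immunoprecipitation, in which each count is 1 unique cDNA that ended at 1 crosslinked nucleotide. All 3 libraries were biological replicates of a single group, testes of adult wild type mice, precipitated with a polyclonal anti-Tra2b antibody (Abcam, ab31353). The testes were minced, and the methods describe the irradiated material as germ cells released in this way. The labels gave the cell type as mixed, with no age beyond adult and no treatment of the animals. No input, control antibody or knockout library was analysed here, so comparisons were made inside each library, between regions of a gene or between genes. RNA levels were not measured in these files, so more RNA and more contact per RNA cannot be told apart between genes, and neither can more cells of a type and more RNA per cell.

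Hsp70 proteins bind and release stretches of unfolded protein in a cycle driven by ATP. Hsp90 proteins act later, on client proteins that are nearly folded, and Hsp110 proteins, which are large relatives of Hsp70, exchange its nucleotide. The testis has forms of its own in these families: Hspa2 is needed in spermatocytes for meiosis, Hspa4l is an Hsp110 protein of spermatocytes and spermatids, and Hsp90aa1 is the inducible cytosolic Hsp90, abundant in germ cells. Tra2β is a splicing activator that contacts exons rich in GAA. GAA encodes glutamate, so that stretches of acidic residues, such as the charged linker of Hsp90, can be encoded by GAA repeats.

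The libraries held 348033, 619571 and 488719 crosslinks in replicates 1, 2 and 3. Canonical exons of protein-coding genes took 27.8%, 13.3% and 39.2% of them in the same order, so replicate 2 was the deepest library and the poorest in exonic crosslinks. All 9 germ cell markers checked had exonic crosslinks, with summed levels of 384 to 2099 CPM (crosslinks scaled to a common library total). The 5 Sertoli cell markers summed to 30.7 to 37.4 CPM, the 5 Leydig cell markers to 38.7 to 97.7 CPM and the 2 peritubular myoid cell markers to 0 to 28.6 CPM. The 3 blood markers (Ptprc, Hbb-bs, Hba-a1) and the 2 liver markers (Alb, Apoa1) were at 0 in every library. The part of somatic cells in the values below was not tested.

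The 10 chaperone genes held 3691 exonic crosslinks, 1030, 300 and 2361 in replicates 1, 2 and 3, and 381 intronic ones. Levels were compared between genes as exonic CPM per kb of exon, as means ± SD over the 3 libraries. Hsp90b1, which encodes the Hsp90 of the endoplasmic reticulum, had the highest level of the 10 in each library, 437, 65.0 and 676 in replicates 1, 2 and 3. Its mean of 393 ± 308 ranked 8 among all protein-coding genes. Over all exon bases, Hspa8, the constitutive cytosolic Hsp70, had the lowest level in each library, with 0, 0 and 5 exonic crosslinks, a level of 1.42 ± 2.47. With no crosslink in replicates 1 and 2, the limit that 3 counts set for the whole transcript was 8.62 and 4.84 CPM there.

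Between these ends, the means ran from Hsp90aa1 (74.0 ± 68.4, rank 116), Hspa4l (67.4 ± 49.2, rank 138), Hspa5 (53.3 ± 45.8, rank 193) and Hspa2 (45.2 ± 30.8, rank 258) to Hsp90ab1 (34.9 ± 32.4), Hspa4 (29.8 ± 24.9), Hspa9 (24.0 ± 22.7) and Hsph1 (3.98 ± 1.84). The SD was close to the mean for most genes because replicate 2 was low for nearly all of them. Hsph1, the heat-inducible Hsp110, was an exception, with 5, 14 and 18 exonic crosslinks. In replicate 2 it exceeded Hspa9, the mitochondrial Hsp70, which had 3.33 against 3.66 for Hsph1. Neighbours in this order differed by less than the larger of their SDs, apart from Hsp90b1 over Hsp90aa1 and Hsph1 over Hspa8. These SDs include the low replicate 2 that most genes share. Compared inside each library, these pairs, Hspa4l over Hspa5 and Hspa4 over Hspa9 kept their order in every library. The other neighbours did not. The median over the 13718 genes with any exonic crosslink was 1.50, so 9 of the 10 genes lay above it. Hspa8 lay just under it, counted over all its exon bases.

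**Figure D1:**
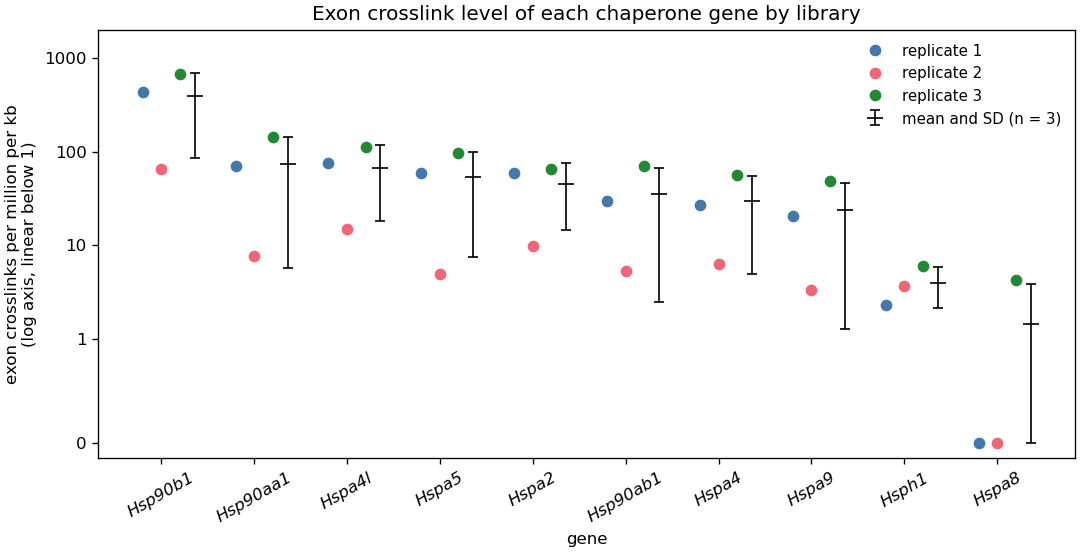
Exonic CPM per kb of exon (log axis, linear below 1) for the 10 chaperone genes, 1 point per library, with the mean and SD over 3 libraries beside them. Replicate 2 is the lowest point for most genes, Hsp90b1 is highest in every library, and Hspa8 has no crosslink in replicates 1 and 2.

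The levels rest on different amounts of usable sequence. Some chaperone genes have many processed copies in the genome, and how the authors treated reads that map to several places was not given in the sources used here. A base was counted as uniquely placed where the 30 nt that follow it occur once in the genome. This held for 28.0% of Hspa8 exon bases and 35.6% of Hsp90aa1 exon bases, against 79.2% in Hsp90ab1, 82.1% in Hspa9 and 96.2% to 100% in the other 6 genes. In Hsp90aa1 the density was 203 crosslinks per kb (3 libraries summed) on uniquely placed bases and 42.7 on the rest. In Hspa8 it was 5.97 against 0.580, from 4 crosslinks on 670 nt and 1 on 1724 nt. Since the last 30 nt of each inner exon run into an intron, they count as unique even where the spliced RNA is not, and away from exon ends only 433 nt of Hspa8 and 969 nt of Hsp90aa1 were uniquely placed. On uniquely placed bases the mean level of Hsp90aa1 was 152 ± 140. That of Hspa8 was 4.07 ± 7.05, with all its crosslinks in replicate 3, against 3.98 ± 1.84 for Hsph1. Hspa8 thus did not have the lowest mean on these bases.

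**Figure D2:**
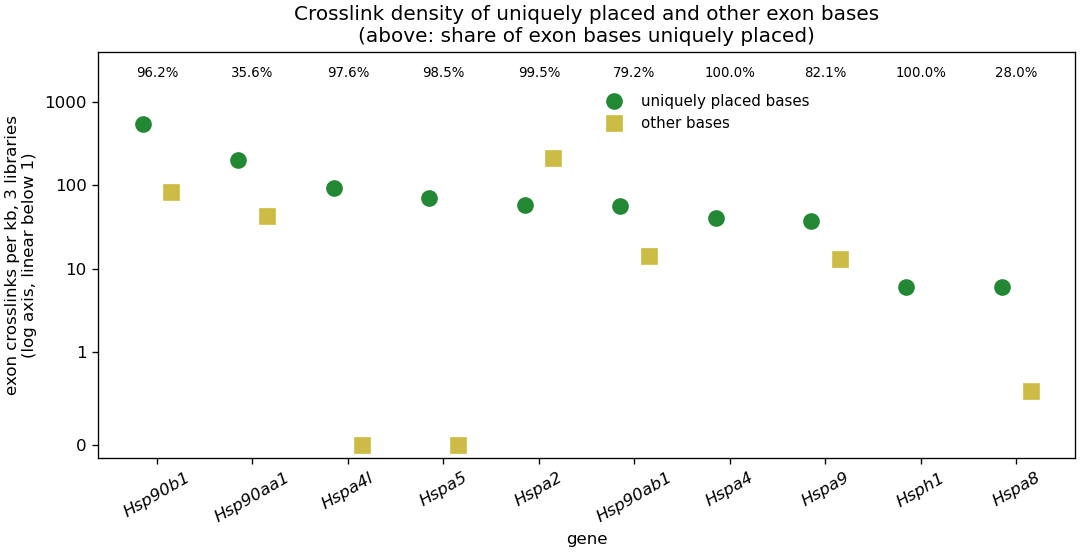
Exonic crosslinks per kb over the 3 libraries (log axis, linear below 1) on uniquely placed bases (circles) and on the other bases (squares), with the share of uniquely placed exon bases printed above each gene. Hspa8 and Hsp90aa1 have the smallest uniquely placed shares, 28.0% and 35.6%, and Hspa4 and Hsph1 have no other bases. The square of Hspa2 rests on 3 crosslinks in 14 nt.

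The Hsp110 genes had the clearest exon pattern. Hspa4l carried 251, 88 and 527 exonic crosslinks in replicates 1, 2 and 3, and its exon 16 alone held 58, 9 and 100 of them in 108 nt. That is 1546 crosslinks per kb, against 90.2 for the whole transcript. The exon was denser than the other exons of its transcript in all 3 libraries, by a log2 ratio of 4.16 ± 0.69 (SD, n = 3; edgeR adjusted p = 1.80e-27). In a comparison restricted to coding bases the fitted log2 fold was 2.63 (edgeR adjusted p = 4.38e-11).

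Hspa4l also had higher density in exons 12, 14, 15, 17 and 18 (304 to 542 crosslinks per kb), all of them coding. Its last exon, a coding end of 186 nt followed by 3′ UTR in an exon of 6903 nt, was lower, at 25.1 per kb, with a log2 ratio of -3.11 ± 0.64. Much of the contrast for exons 12, 14, 15, 17 and 18 lay against this UTR: on coding bases none of the 5 was called, and the fitted log2 fold of exon 19 turned to 0.05.

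Hspa4, the general paralog of Hspa4l, had its highest density in the same place. Exon 16 held 5, 3 and 11 crosslinks (176 per kb, log2 ratio 2.61 ± 0.59, edgeR adjusted p = 0.000972) and exon 15 held 7, 1 and 14 (175 per kb, 2.21 ± 0.61, adjusted p = 0.000810). Both lost the call on coding bases, without replicate 1 and without replicate 3. Hsph1 had too few crosslinks for its exons to be tested, apart from 1. Its densest exon, exon 15, held 1, 3 and 0 crosslinks, or 37.0 per kb. Exon 14, which is longer, held 0, 3 and 1, or 31.7 per kb.

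The 3 densest exons are counterparts by their place before the end of the transcript, an identity that was noticed after the values were seen. Each is 108 nt long. Exon 16 of Hspa4l was 71.3% identical to exon 16 of Hspa4 and 64.8% identical to exon 15 of Hsph1 over its length. They are printed because they are the densest exon of each gene, in Hsph1 on only 4 crosslinks, 5′ to 3′ on the RNA strand, with GAA in capitals. Positions are GRCm39: exon 16 of Hspa4l at chr3:40739052-40739159 on the plus strand, exon 16 of Hspa4 at chr11:53155861-53155968 on the minus strand and exon 15 of Hsph1 at chr5:149542426-149542533 on the minus strand.
Hspa4l exon 16: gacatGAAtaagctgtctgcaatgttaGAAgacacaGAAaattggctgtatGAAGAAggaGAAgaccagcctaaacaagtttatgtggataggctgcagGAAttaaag
Hspa4 exon 16: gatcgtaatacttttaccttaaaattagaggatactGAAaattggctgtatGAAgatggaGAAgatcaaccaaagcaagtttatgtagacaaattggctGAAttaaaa
Hsph1 exon 15: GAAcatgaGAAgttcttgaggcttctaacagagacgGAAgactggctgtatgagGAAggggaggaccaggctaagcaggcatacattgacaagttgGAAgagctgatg

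The Hspa4l exon has 7 GAA (overlapping ones included), that of Hspa4 has 4 and that of Hsph1 has 5. The 41 nt of coding sequence with the most crosslinks in Hspa4l lay in exon 16, at chr3:40739069-40739109, with 36, 5 and 60 crosslinks in replicates 1, 2 and 3, or 13.7% of all those in its coding sequence. The densest 41 nt of Hspa4 lay at chr11:53155904-53155944 in its exon 16, with 4, 3 and 5 crosslinks. Both windows are on the strands given above.
Hspa4l window: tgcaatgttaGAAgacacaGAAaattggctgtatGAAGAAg
Hspa4 window: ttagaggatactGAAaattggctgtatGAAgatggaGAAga

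**Figure D3:**
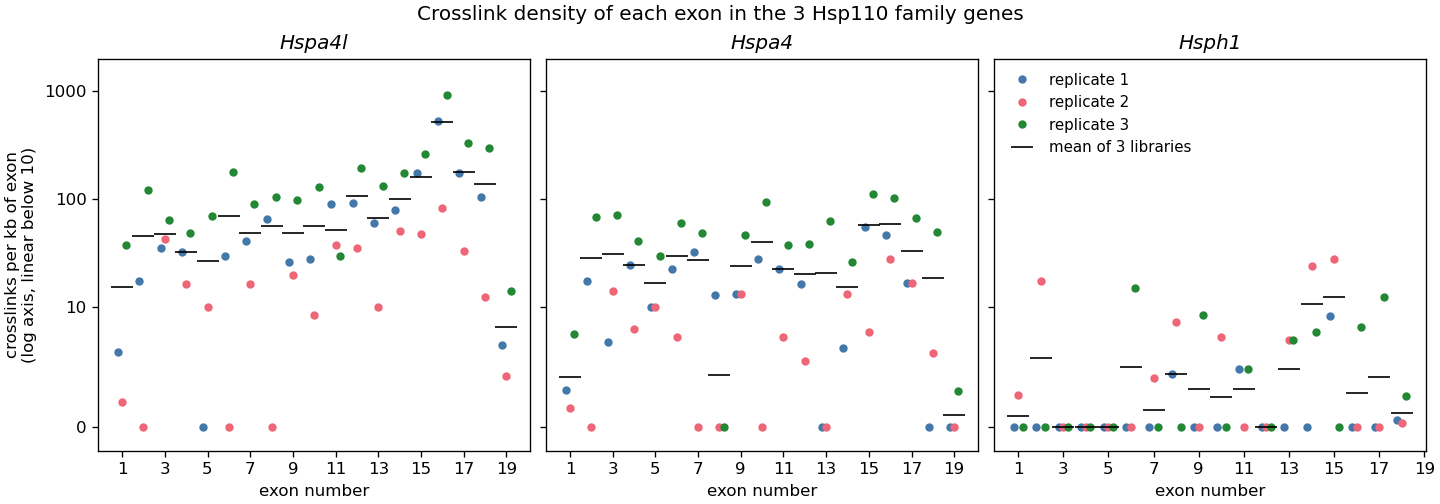
Crosslinks per kb of each exon (log axis, linear below 10) in Hspa4l, Hspa4 and Hsph1, by exon number, with 1 point per library and a dash for the mean of 3 libraries. The densest exon is exon 16 in Hspa4l and Hspa4 and exon 15 in Hsph1, with exon 15 of Hspa4 and exon 14 of Hsph1 close to theirs. The last exon, mostly 3′ UTR, is the sparsest in Hspa4l and Hspa4.

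Among the Hsp90 genes, Hsp90b1 carried 430, 114 and 935 exonic crosslinks. They were spread over the whole transcript, with every exon at 212 per kb or more. Exons 7 and 17 stood above the others. Exon 7 held 53, 28 and 89 crosslinks in 120 nt (1417 per kb, log2 ratio 1.94 ± 0.85, edgeR adjusted p = 6.14e-07) and exon 17 held 40, 27 and 84 in 120 nt (1258 per kb, 1.74 ± 0.94, adjusted p = 1.78e-05). Exon 1, mostly 5′ UTR, was the lowest, with 20, 2 and 22 crosslinks.

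Exons 7 and 17 encode the charged linker and part of the acidic C-terminal end of the protein, and they had the 2 highest GAA contents of all called exons, 11.7 and 10.8 per 100 nt. They are shown as the exons where acidic codons and crosslinks lay together. Exons 2 and 16 also hold stretches of acidic codons but were sparser than the other exons in each library, without a call. They had 291 and 365 crosslinks per kb, with log2 ratios of -0.76 ± 0.15 and -0.54 ± 0.10. Exon 7 is at chr10:86534183-86534302 and exon 17 at chr10:86527493-86527612, both on the minus strand.
Hsp90b1 exon 7: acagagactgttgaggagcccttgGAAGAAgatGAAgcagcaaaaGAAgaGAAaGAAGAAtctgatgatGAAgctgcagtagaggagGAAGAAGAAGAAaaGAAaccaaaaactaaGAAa
Hsp90b1 exon 17: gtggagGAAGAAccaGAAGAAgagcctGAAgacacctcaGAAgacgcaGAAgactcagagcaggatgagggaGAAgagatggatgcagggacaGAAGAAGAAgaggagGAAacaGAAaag

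Hsp90b1 also had the most positions crosslinked in all 3 libraries, 21 of 907 exonic positions, against 3 in Hspa4l, 2 in Hsp90aa1, 1 in each of Hspa4 and Hspa5, and none in the other 5. Part of its transcript is shared with other annotated genes on the same strand. A predicted miRNA gene, Gm54730, overlapped 133 nt of its exons, which held 18, 2 and 20 crosslinks, and the non-coding gene Gm15344 overlapped 63 nt of exon. The part of these genes in its level, from 1479 exonic crosslinks, was not tested.

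Such windows were taken in 7 genes, all but Hspa8, Hspa9 and Hsph1. Among these 7, Hsp90aa1 had the largest share of coding crosslinks in 1 window. Only 430 of the 2199 coding nt of Hsp90aa1 were uniquely placed, and the part of this in the share was not tested. Of its 82, 17 and 232 coding crosslinks, 41, 6 and 68 lay in a single window of 41 nt in exon 5, at chr12:110660589-110660629 on the minus strand, which is 34.7% of the total. The window codes for part of the charged linker, 90.2% of its bases are purines, and 26 of its 41 nt are uniquely placed. In the reading frame most of its codons are for lysine, and only its last GAA is read as a glutamate codon.
Hsp90aa1 window: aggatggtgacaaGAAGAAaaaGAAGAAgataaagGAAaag

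Exon 5 as a whole held 43, 9 and 74 crosslinks (log2 ratio 2.96 ± 0.76, edgeR adjusted p = 6.06e-11). Exon 8, which encodes part of the middle domain, held 17, 1 and 75 (628 per kb, 2.30 ± 1.14, adjusted p = 5.59e-09). Replicate 2 was low in exon 8, and without replicate 3 the call was lost. Exons 6, 7, 9, 10 and 11 were lower than the rest, from 2.99 to 26.2 per kb. The first 4 of these are coding exons with only 27 to 30 uniquely placed nt each, and none of the 4 was called on uniquely placed bases, where they held 1, 4, 4 and 1 crosslinks in exons 6, 7, 9 and 10. The fitted log2 folds there were -2.63, -0.63, -0.35 and -2.48. Over the 9 fully coding exons of Hsp90aa1, density followed the uniquely placed share (Spearman's rho 0.80 across exons, a description) more closely than the GAA content (rho 0.33). Exons 5 and 8 were still called on uniquely placed bases, at 1607 and 770 crosslinks per uniquely placed kb, and exons 2, 3 and 4 had 435, 382 and 448.

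Hsp90ab1, the constitutive cytosolic Hsp90, had 28, 9 and 92 exonic crosslinks, with no exon called among the 11 tested by edgeR (3 at an unadjusted p under 0.05, 0 called by DESeq2). Its exons 6 and 8 are the counterparts of the called exons of Hsp90aa1. Exon 6 held 4, 3 and 17 crosslinks (77.7 per kb, against 393 in exon 5 of Hsp90aa1) and exon 8 held 3, 0 and 8 (74.3 per kb, against 628). Exon 4 of Hsp90aa1 and its counterpart, exon 5 of Hsp90ab1, also differed in GAA, 5.97 against 2.99 per 100 nt. Their log2 ratios over the other exons were alike, 1.51 ± 1.07 and 1.62 ± 0.62. The 2 exons 8 are equal in length and 68.9% identical, and they are shown side by side because they differ in both crosslinks and GAA, 9 in Hsp90aa1 and 4 in Hsp90ab1. They lie at chr12:110659454-110659601 and chr17:45880166-45880313, both on the minus strand. Of their 148 nt, 87 are uniquely placed in Hsp90aa1 and 146 in Hsp90ab1.
Hsp90aa1 exon 8: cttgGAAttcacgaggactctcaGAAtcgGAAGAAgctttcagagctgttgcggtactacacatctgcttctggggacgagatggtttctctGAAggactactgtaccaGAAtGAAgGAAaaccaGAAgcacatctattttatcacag
Hsp90ab1 exon 8: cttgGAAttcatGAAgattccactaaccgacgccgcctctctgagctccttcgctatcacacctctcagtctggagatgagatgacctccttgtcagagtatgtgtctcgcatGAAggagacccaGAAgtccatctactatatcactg

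Among the Hsp70 genes, Hspa2 had 58, 17 and 90 exonic crosslinks and none in its single intron of 239 nt. Its coding sequence lies in 1 exon, but the canonical transcript has 2, the first of them non-coding, so the gene is intronless only in its coding part. Exon 2 was called over exon 1 (edgeR adjusted p = 0.0395), the 2 values being the same test seen from either side. DESeq2 did not call it. In its coding sequence the densest 41 nt held 5, 0 and 4 crosslinks and contain no GAA. Counted in steps of 50 nt over the transcript, the most crosslinks, 8, 0 and 6, lay in the 3′ UTR.

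Hspa5, the Hsp70 of the endoplasmic reticulum, had 102, 15 and 232 exonic crosslinks. No exon was called among 8 tested by edgeR (1 at an unadjusted p under 0.05, 0 called by DESeq2). Its densest 41 coding nt held 10, 2 and 17 crosslinks, at chr2:34665992-34666032 on the plus strand in exon 8, close to the end of the coding sequence and across the end of its acidic region. They are shown because the long 3′ UTR in the same exon hides them in a count by exon, where exon 8 had 61.2 crosslinks per kb.
Hspa5 window: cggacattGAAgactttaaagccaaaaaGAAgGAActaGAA

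Hspa9 had 24, 7 and 80 exonic crosslinks and no exon called among 14 tested by edgeR (4 at an unadjusted p under 0.05, 0 called by DESeq2). Its densest exon was exon 15, with 2, 1 and 6. Of the 5 exonic crosslinks of Hspa8, 2 lay in its non-coding first exon, 1 in exon 3 and 2 in its last exon. Both of its intronic crosslinks fell in snoRNA genes (Snord14c and Snord14e).

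**Figure D4:**
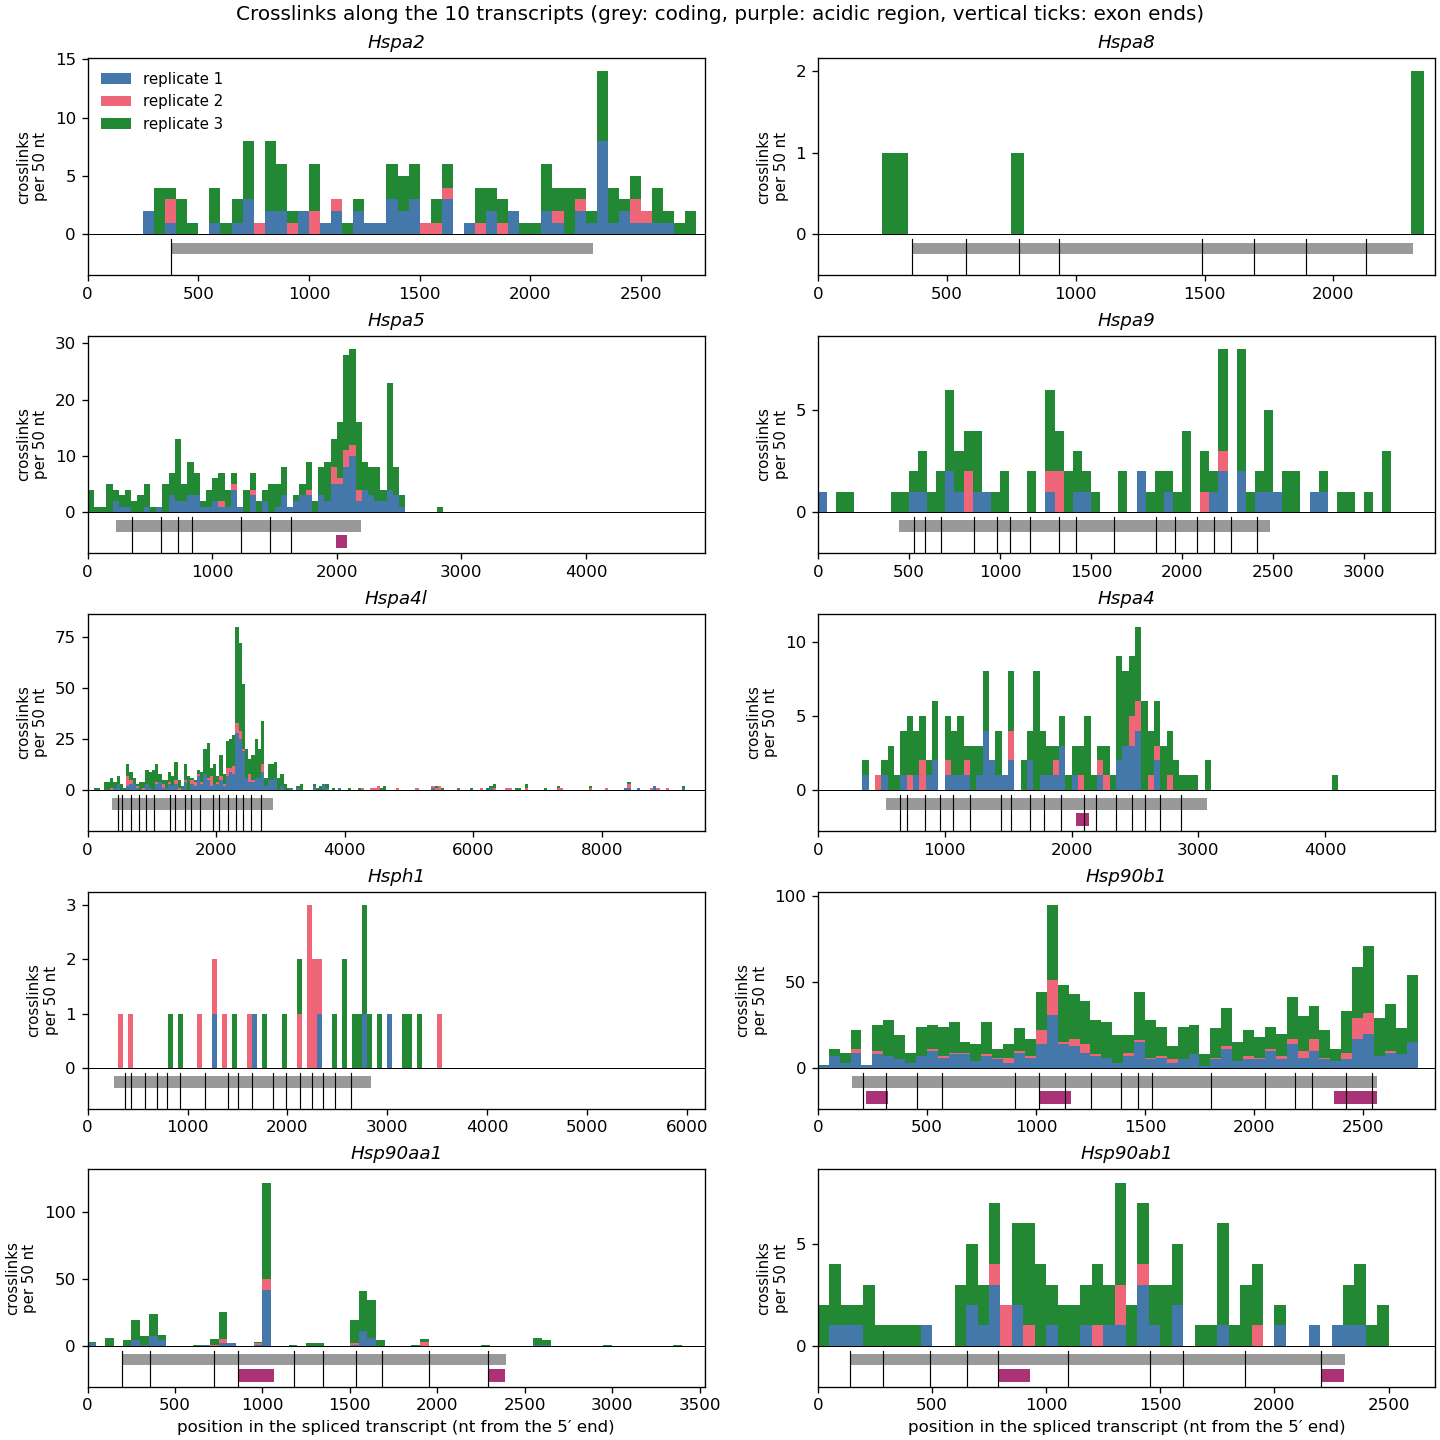
Crosslinks per 50 nt along the 10 spliced transcripts, stacked by library, from the 5′ end. Grey bars mark coding sequence, purple bars the acidic regions and ticks the exon ends, and each panel has its own scale. Peaks stand over single exons in Hspa4l and Hsp90aa1, Hsp90b1 has crosslinks over most of its length, and the highest bar of Hspa2, with 8, 0 and 6 crosslinks, lies in its 3′ UTR.

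Across the 10 genes, 102 of 132 exons had enough crosslinks to be tested against the other exons of their transcript. Of these 13 (12.7%) were higher and 10 (9.80%) lower (edgeR, adjusted over all 17630 exons tested), against 5.58% and 8.29% of all exons tested. The 13 higher exons were 6 of Hspa4l, 2 each of Hspa4, Hsp90aa1 and Hsp90b1, and exon 2 of Hspa2. All but the last were wholly coding, against 83.7% of all higher exons in the genome. Of the 10 lower ones 6 held UTR and 4 were wholly coding, against 7.66% wholly coding among all lower exons. These 4 are exons 6, 7, 9 and 10 of Hsp90aa1, with 27 to 30 uniquely placed nt each. Both replicates 1 and 3 mattered to these counts: 6 of the 13 were still called without replicate 1 and 6 without replicate 3, while all 23 calls were kept without replicate 2. Exons 15, 16 and 17 of Hspa4l, exon 5 of Hsp90aa1 and exon 7 of Hsp90b1 were called in all 3 of these reduced fits. On coding bases 5 of the 13 were kept, namely exon 16 of Hspa4l, exons 5 and 8 of Hsp90aa1 and exons 7 and 17 of Hsp90b1.

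The higher exons had a median of 6.08 GAA per 100 nt, the lower 1.81 and the exons not called 3.00. Over all exons tested in the genome the medians were 4.64, 1.80 and 2.34. The relation did not hold for every exon. Exon 14 of Hspa4l was higher with 1.45 GAA per 100 nt. Exon 9 of Hsp90aa1 was lower with 7.06, but only 28 of its 269 nt were uniquely placed, and on these it was not called. Exon 4 of Hspa5 had the highest density of that gene, 177 per kb, with 0.885 GAA per 100 nt. Counted by position, 58.7% of Hspa4l crosslinks lay within 10 nt of a GAA, against 36.6% of its exon bases. The pair of values was 63.0% and 38.1% in Hspa5, 65.9% and 45.2% in Hsp90aa1 and 62.8% and 57.5% in Hsp90b1. Hspa2 had the smallest share, 29.7% of crosslinks against 31.4% of bases, with 27.6%, 41.2% and 28.9% in replicates 1, 2 and 3.

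**Figure D5:**
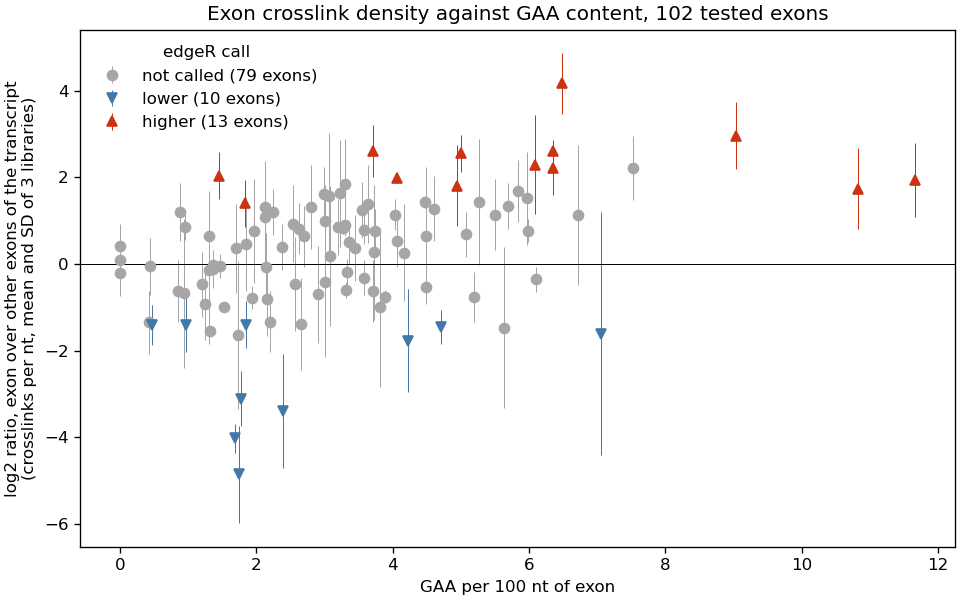
Log2 ratio of crosslinks per nt in an exon over the other exons of its transcript (mean and SD over 3 libraries) against GAA per 100 nt, for the 102 tested exons of the chaperone genes, marked by the edgeR call. The 13 higher exons have a median of 6.08 GAA per 100 nt and the 10 lower ones 1.81, with single exceptions on both sides.

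The exons that hold acidic regions were compared with the other exons of their transcripts. An acidic region was taken as codons covered by windows of 30 codons with at least 12 for aspartate or glutamate, and an exon counted when it held at least 30 nt of one. Hspa4, Hspa5, Hsp90aa1, Hsp90ab1 and Hsp90b1 could be tested. Only Hsp90b1 was called higher, 1 of 5 against 25.8% of all 1044 genes tested, and none was called lower (2.87% of all genes; none of the 5 was lower at an unadjusted p under 0.05, nor was any lower by DESeq2). In Hsp90b1, exons 2, 7, 16 and 17 passed the limit of 30 nt and make up 499 nt. Taken singly, exons 7 and 17 were denser than the other exons of the transcript, and exons 2 and 16 were sparser. Shorter stretches of the 3 acidic regions of Hsp90b1, in exons 3, 8 and 18, were counted with the other exons. The acidic-region exons held 118, 61 and 229 crosslinks, and the other 2331 nt held 312, 53 and 706 (log2 ratio 1.28 ± 0.99, edgeR adjusted p = 0.0255). The ratio was largest in replicate 2, where the acidic-region exons held more crosslinks than all the others. The call was lost without replicate 1 (edgeR adjusted p = 0.315), without replicate 3 (0.117), with each position counted once (0.0711) and on coding bases (0.0972).

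This comparison depended on what was counted, since the last exons of Hsp90aa1, Hsp90ab1 and Hspa5 hold both an acidic region and a 3′ UTR. On uniquely placed bases, the acidic-region exons of Hsp90aa1, most of whose bases are then 3′ UTR, were lower than its other exons (fitted log2 fold -1.07, edgeR adjusted p = 0.0478). In an alternative chosen after the data were seen, the bases of the acidic regions were set against all other coding bases. In Hsp90aa1 they held 43, 9 and 73 crosslinks in 300 nt against 39, 8 and 159 in 1899 nt (log2 ratio 2.39 ± 0.73, edgeR adjusted p = 0.000146). In Hsp90b1 they held 118, 58 and 224 in 438 nt against 265, 55 and 598 in 1968 nt (1.33 ± 0.80, adjusted p = 0.00808). In Hspa5 they held 7, 2 and 19 in 81 nt against 75, 13 and 154 in 1884 nt (1.62 ± 0.45, adjusted p = 0.0682). Hsp90ab1 had 4, 3 and 8 crosslinks in 237 nt (0.96 ± 1.10, adjusted p = 0.587), and Hspa4 had 0, 1 and 6 in 105 nt (-0.23 ± 1.53, adjusted p = 0.833). In Hsp90aa1 the exon 5 window held 41, 6 and 68 of these crosslinks. Most codons of that window are for lysine, so the ratio of Hsp90aa1 does not show contact at acidic codons themselves. On uniquely placed bases alone its acidic regions shrank to 26 nt, which held 31, 2 and 56 crosslinks, while the other 404 nt held 33, 7 and 110 (log2 ratio 3.08 ± 0.75).

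The germ cell and general paralogs were compared as log2 ratios of exonic crosslinks per kb, with no test, since 3 libraries cannot give a two-sided exact p below 0.25 in a sign-flip test. Hspa4l exceeded Hspa4 in 3 of 3 libraries, by 1.45, 1.20 and 1.00 (mean 1.22 ± 0.23), and the 95% counting interval lay above 0 in each. On coding bases the mean was 1.97 ± 0.31. Hsp90aa1 exceeded Hsp90ab1 by 1.22, 0.50 and 1.05 (mean 0.92 ± 0.38), and in replicate 2 the interval, -0.71 to 1.88, spanned 0. On uniquely placed bases the mean rose to 1.71 ± 0.36. Hspa2 exceeded Hspa8 by 6.65, 4.91 and 3.82 with 0.5 added to each count, a size set largely by the empty Hspa8 libraries. In replicate 3, where both genes had crosslinks, the interval was 2.67 to 5.61. On uniquely placed bases that library gave 2.23, from 87 crosslinks in Hspa2 and 4 in Hspa8.

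Summed over genes, the 3 germ cell genes and the 7 general genes had similar densities, 86.9 and 84.5 crosslinks per kb (mean log2 ratio 0.11 ± 0.12). This held over all exon bases and with Hsp90b1 included. On coding bases, with Hsp90b1 kept, the densities were 180 and 129 per kb (mean log2 ratio 0.44 ± 0.12, above 0 in 3 of 3 libraries). Leaving out Hsp90b1, the gene with the highest level, was not planned and could only raise the ratios over the general and spliced genes. Without Hsp90b1 the general genes had 33.9 per kb and the mean log2 ratio was 1.45 ± 0.18, above 0 in 3 of 3 libraries. Hspa2 against the 9 other genes, all of them with introns in the coding sequence, gave a mean log2 ratio of -0.38 ± 0.35. The single libraries gave -0.20, -0.16 and -0.79, and the 95% counting interval excluded 0 only in replicate 3. Without Hsp90b1 the mean turned to 0.30 ± 0.37. On coding bases Hspa2 was lower in each library, by log2 ratios of -0.99, -0.82 and -1.45, and the interval excluded 0 in all 3. Without Hsp90b1 the mean on coding bases was -0.44 ± 0.36, below 0 in 3 of 3 libraries, and the interval excluded 0 only in replicate 3. The design holds 1 such gene, and its other properties cannot be told apart from its lack of introns.

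Exons had more crosslinks per nt than introns in 9 of the 9 genes tested (edgeR, adjusted over all 6907 genes tested), where 72.6% of all genes tested were called in this direction. Hspa8 had too few crosslinks to be tested. In Hsp90b1 the exons held 523 crosslinks per kb and the introns 4.31, with 9, 10 and 32 intronic crosslinks. The ratio of densities was 121 in this gene, 43.1 in Hspa4, 42.8 in Hspa5, 37.9 in Hspa9, 35.5 in Hsp90ab1, 15.5 in Hspa4l, 12.5 in Hsp90aa1 and 5.99 in Hsph1. Hspa2 was at least 4.71-fold denser in exons, with 3 counts taken for its empty intron over the 3 libraries. The order depended on the intron bases counted. With bases left out that are exon in another annotated transcript, Hsp90aa1 kept 4 of its 20 intronic crosslinks and its ratio became 43.7. The ratio was then 56.2 in Hspa9, 31.6 in Hspa5 and 21.4 in Hsp90ab1, and that of Hspa2 at least 2.35.

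Hspa4l carried most intronic crosslinks of the 10 genes, 59, 91 and 89, and in replicate 2 its introns held more than its exons (91 against 88) over 41198 nt of intron and 9603 nt of exon. Without replicate 1 its call was lost (edgeR adjusted p = 0.0925). Replicate 2 also had the lowest exonic share of all crosslinks. In Hsph1, by contrast, the share of crosslinks in exons was highest in replicate 2, at 82.4%, and lowest in replicate 1, at 38.5%, on few counts.

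Coding sequence was denser than the 3′ UTR in 5 of 9 genes tested, against 41.8% of all 3296 genes tested (edgeR, adjusted over these). Hspa4 was the most extreme, with 44, 18 and 129 coding crosslinks in 2526 nt and 0, 0 and 2 in 1798 nt of UTR. Hspa4l, Hspa5, Hsp90aa1 and Hsph1 were the others, with densities 17.4, 5.82, 14.2 and 6.70 times those of their UTRs. Hsph1 lost the call without replicate 1 (edgeR adjusted p = 0.0527) or replicate 3 (0.123). In Hspa2 the coding sequence had 63.2 crosslinks per kb and the 3′ UTR 73.6 (log2 ratio -0.21 ± 0.29, edgeR adjusted p = 0.790). Hsp90b1 had 548 and 515 per kb (adjusted p = 0.395), with 36, 1 and 98 crosslinks in 262 nt of 3′ UTR. Hspa9 and Hsp90ab1 leaned to the coding sequence without passing (adjusted p = 0.0679 and 0.0973).

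A list of 53 other chaperone genes was taken alongside: other Hsp genes, J-domain proteins, nucleotide exchange factors and Hsp90 cochaperones, with heat shock factors and chaperonins. Exons were denser than introns in 30 of the 39 tested (72.6% over all genes). Of their 106 tested exons 13 were higher and 15 lower (5.58% and 8.29% of all exons tested). The 3 genes with the highest levels per kb were Dnajc5b (66.3 ± 52.4 CPM per kb), Dnajc7 (58.7 ± 35.5) and Hspa1l (50.5 ± 40.4). Dnajc5b and Dnajc7 encode J-domain proteins, and Hspa1l encodes an Hsp70 of the testis closely related to Hspa1a. Hsp90b1, Hsp90aa1 and Hspa4l had higher means than any of the 53, and those of Hsp90aa1 and Hspa4l lay within 1 SD of these 3. Among acidic-region exons, St13, an Hsp70 and Hsp90 cochaperone, was higher (6, 7 and 18 crosslinks over 211 nt, 23, 14 and 75 elsewhere, edgeR adjusted p = 0.000176). Dnaja4 was lower (8, 4 and 12 in the 1857 nt of its last exon, adjusted p = 0.000427). Coding sequence was denser than 3′ UTR in 13 of 24 (41.8% of all genes tested).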

How the data were processed

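Crosslinks were mapped by iCLIP in 3 testis libraries of 1 group. Per the labels, the authors' processing named Trim Galore 0.6.7, Bowtie 1.3.1, STAR 2.7.9a and UMI-tools 1.1.2 and the build mm39, and the study's methods named the iMAPS pipeline. For each crosslinked nucleotide and strand, the authors deposited a raw count of unique cDNAs per library. The treatment of reads with several places was not given in the sources used here, and it decides how much signal genes with processed copies can hold.

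Counts were summed on the gene's strand over exons, introns, coding sequence and UTRs of the canonical transcripts of GENCODE vM39 (GRCm39). Each comparison set the counts of 2 regions of a gene in the 3 libraries against each other, with region length and library total as offsets and the library as a block, in edgeR 4.0.16 (quasi-likelihood test, R 4.3.3) across all genes or exons, with Benjamini-Hochberg adjustment over all of them. A call is an adjusted p under 0.05. Genes needed 20 crosslinks, exons 3 expected crosslinks, and coding sequence and UTR 100 nt each. Log2 ratios per library had 0.5 added to each count. CPM were scaled to the library total. The p-values rest on the spread between 3 libraries of the difference between regions, drawn towards a spread shared by all genes or exons in the fit. The animals of the libraries were not described. The 95% counting intervals and the limit of 3 counts for a count of 0 cover counting error only. DESeq2 1.42.0 and an exact binomial test in each library were alternatives. Scripts were tested on simulated data.

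The genes, the lists and the tests were chosen with earlier results of these data known. The text names all 10 genes, exons when called and the densest and sparsest exon of a gene, and of the other chaperones those called for acidic-region exons and the 3 densest. Sequences were taken from GRCm39. No protein sequences were used.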

Additional observations from a re-analysis of the deposited data

Results flagged for a closer look

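Crosslinks on the strand opposite to the gene, which no comparison used, exceeded the 3 counts that a count of 0 allows in 3 of the 10 genes. Hsph1 had 14 of them, 6, 5 and 3 in replicates 1, 2 and 3, against 37 on its exons, and all but 1 lay within the annotated antisense non-coding gene Gm73411. Hspa9 had 6, all in replicate 2, of which 5 lay within the antisense gene Gm56507. Hsp90b1 had 4, 3 of them in replicate 2 and 1 in replicate 3, beside 1479 on its exons.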

How the results depend on the processing

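No paired analysis was possible because there is 1 group, so that no replicate numbers are shared between groups. Within a gene, every fit held the library as a block. Of 479 values of single genes, single exons and the sum over germ cell genes under the alternatives, 377 kept their direction and side of the threshold, 75 lost a call, 3 gained one, 3 moved and 21 changed sign. The cause was not tested unless stated. The number of genes with exons above introns stayed at 9 except without replicate 1 (8, Hspa4l lost) and with the exact binomial test in each library (6, Hspa2, Hspa5 and Hsph1 lost), and that of genes with coding sequence above 3′ UTR ran from 4 to 6. The 13 higher exons became 6 to 21 when 1 library was left out, 6 by the exact binomial test and 6 on coding bases, which removes the sparse 3′ UTRs from the reference. The 10 lower exons became 3 to 14 when 1 library was left out, 3 by the exact binomial test and 5 by DESeq2. Over all exons, 983 higher calls became 183 to 1191 with 1 library left out, 116 by the exact binomial test, 605 by DESeq2 and 335 on coding bases.

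The count of 1 gene with denser acidic-region exons became 0 to 1 when 1 library was left out and 0 with each position counted once. It became 2 on coding bases (Hspa5 and Hsp90aa1, with Hsp90b1 lost; 80 of all 887 genes tested). It became 2, Hsp90aa1 and Hsp90b1, with at least 15 of 30 codons acidic (106 of 410 genes), and the same 2 for acidic bases against other coding bases (130 of 903) and for these on uniquely placed bases (130 of 895), the last pair of settings chosen after seeing the data. Fitted log2 folds that changed sign there were, in the order coding bases, acidic bases and the same uniquely placed, -0.44, -0.30 and -0.30 in Hspa4 (reported value 0.52), 1.65, 2.27 and 3.21 in Hsp90aa1 (-0.01), 0.47, 0.54 and 0.60 in Hsp90ab1 (-0.17) and 1.63, 1.42 and 1.42 in Hspa5 (-0.31). With at least 15 of 30 codons acidic they were 2.83 in Hsp90aa1 and 0.89 in Hsp90ab1. Hsp90aa1 also turned to 0.48 without replicate 3, 0.11 with the exact binomial test and 0.024 with DESeq2 (-0.24 to 0.48 with 1 library left out), and was called lower (-1.07) on uniquely placed bases. Hspa5 turned to 0.067 without replicate 3 and was called lower (-0.57) without replicate 2. The coding sequence against 3′ UTR turned to -0.10 in Hsp90b1 on uniquely placed bases and to 0.011 in Hspa2 without replicate 1 (-0.27 to 0.011 with 1 library left out), and exon 19 of Hspa4l to 0.051 on coding bases.

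The mean log2 ratio of Hspa2 over Hspa8, 5.13, became 3.38 on uniquely placed bases and 2.73 on uniquely placed coding bases. Hspa4l over Hspa4, 1.22, became 1.97 on both coding settings. Hsp90aa1 over Hsp90ab1, 0.92, became 0.50 with each position counted once, 1.71 on uniquely placed bases, 1.36 on coding bases and 3.01 on both. Hspa2 over the 9 spliced genes, -0.38, became -1.08 on coding bases, -1.36 on uniquely placed coding bases and 0.30 without Hsp90b1. Leaving out Hsp90b1 was not planned. Depth limits Hspa8 and Hsph1 most, with 5 and 37 exonic crosslinks.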

Other observations

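The following exons of other chaperone genes are examples from those called, picked after their values were seen. Exon 4 of Bag1, an Hsp70 nucleotide exchange factor, held 17, 3 and 33 crosslinks in 114 nt, against 41, 7 and 123 in the other exons (log2 ratio 3.53 ± 0.42, SD, n = 3; edgeR adjusted p = 1.35e-11), while its last exon was lower (log2 ratio -2.93 ± 1.11, adjusted p = 2.45e-12). Of Bag1 exon bases 79.4% were uniquely placed. In Dnajb4, a J-domain protein, exon 2 held 7, 3 and 12 crosslinks in 242 nt (2.86 ± 0.28, adjusted p = 5.23e-05), and its last exon of 3786 nt was lower. In St13, exons 3 and 9 were higher, with 3, 4 and 9 crosslinks in 73 nt (2.82 ± 0.63) and 6, 5 and 10 in 117 nt (2.66 ± 0.75).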
